A study of Mus musculus with 2 samples.

Results

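Transcripts of 9 red cell genes were followed in libraries of gonadal somatic cells, namely 3 embryonic globins (*Hbb-y*, *Hbb-bh1* and *Hba-x*), 4 definitive globins (*Hbb-bs*, *Hbb-bt*, *Hba-a1* and *Hba-a2*), *Alas2* and *Slc4a1*. They were chosen by name, with no threshold on a measured value, and all 9 were found among the 42422 genes of the count table and passed the filter on low counts that left 15125 genes. The cells were GFP-negative cells sorted from E12.5 mouse gonads after the mesonephros had been removed. The embryos were labelled wild type, their strain was given as ASMU Swiss by Oct4(Pou5fl)-eGFP on a 129svJT2 background, and each library was made from a pool of several gonads. The GFP reporter marks germ cells, so all 10 groups lack most germ cells but may keep any other GFP-negative cell, blood cells included. Gonads were either not cultured (XX 0 h and XY 0 h) or cultured with DMSO as vehicle for 24 h or 72 h (XX DMSO and XY DMSO). XY gonads were also cultured for 24 h or 72 h with 500 nM PD0325901, an inhibitor of MEK1/2 (MEKi), or with 500 nM BGJ398, an inhibitor of FGFR (FGFRi). This made 10 groups of 4 libraries, which the study processed in 2 library sets. Set 3 held both 0 h groups, both 24 h DMSO groups and MEKi at 24 h, and set 4 held FGFRi at 24 h and all 72 h groups.

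Haemoglobin is a tetramer of alpha-like and beta-like globin chains, each of which holds a haem. In mice, primitive erythroid cells arise in the yolk sac, enter the blood at mid-gestation and make embryonic chains, whereas definitive erythroid cells come from the foetal liver and make the adult chains. Primitive cells add adult chains as they mature in the circulation, so the switch is a change of cells and also a change within cells. In bulk RNA, fewer cells of a type and less RNA in each cell cannot be told apart.

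The beta-like genes lie in a row on chromosome 7 of GRCm39, with *Hbb-y* at chr7:103500956-103502423, minus strand, *Hbb-bh1* at chr7:103490844-103492371, minus strand, *Hbb-bs* at chr7:103475730-103482989, minus strand and *Hbb-bt* at chr7:103461727-103465047, minus strand. The order along the strand is thus embryonic before definitive. The alpha-like genes lie on chromosome 11 in the same order, with *Hba-x* at chr11:32226400-32228116, plus strand, *Hba-a1* at chr11:32233186-32234504, plus strand and *Hba-a2* at chr11:32246168-32247320, plus strand. *Alas2* lies on chromosome X (chrX:149330371-149353634, plus strand) and *Slc4a1* on chromosome 11 (chr11:102239650-102257029, minus strand). All 9 are annotated as protein coding. *Hbb-bs* overlaps the pseudogene *Hbb-bh3* on its own strand, which makes its counts less certain.

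The 150 bases before the start of 5 of these genes are shown here, from RefSeq for the assembly GRCm38.p6. Capitals mark CACCC and CCAAT on either strand, the cores of motifs known from globin promoters. 7 of the 9 genes were found in the promoter table, and *Hbb-bh1* and *Slc4a1* were not.
Hbb-y (chr7:103853208-103853357, minus strand): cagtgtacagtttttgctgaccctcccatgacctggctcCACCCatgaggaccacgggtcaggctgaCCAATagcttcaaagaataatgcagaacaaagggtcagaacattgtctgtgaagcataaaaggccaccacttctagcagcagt
Hba-x (chr11:32276450-32276599, plus strand): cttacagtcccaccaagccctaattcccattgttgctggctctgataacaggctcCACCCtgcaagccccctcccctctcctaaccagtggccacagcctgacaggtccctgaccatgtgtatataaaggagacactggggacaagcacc
Hbb-bs (chr7:103827929-103828078, minus strand): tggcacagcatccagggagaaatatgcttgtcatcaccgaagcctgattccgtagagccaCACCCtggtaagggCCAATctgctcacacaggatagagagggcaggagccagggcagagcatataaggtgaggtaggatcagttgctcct
Hbb-bt (chr7:103813924-103814073, minus strand): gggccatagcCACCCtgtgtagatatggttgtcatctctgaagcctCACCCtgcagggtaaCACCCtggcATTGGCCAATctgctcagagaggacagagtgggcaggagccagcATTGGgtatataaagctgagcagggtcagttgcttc
Hba-a1 (chr11:32283522-32283671, plus strand): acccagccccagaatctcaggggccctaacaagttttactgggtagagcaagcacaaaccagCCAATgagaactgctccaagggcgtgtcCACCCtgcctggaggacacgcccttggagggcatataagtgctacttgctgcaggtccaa
CACCC was present in all 7 windows and in 36.9% of the 27025 promoter windows of the same length. CCAAT was present in *Hbb-y* and all 4 definitive globins, in neither *Hba-x* nor *Alas2*, and in 25.3% of all windows. In *Hbb-bt*, 1 CCAAT on the printed strand directly followed another on the other strand, with no shared base. GATAA was found in *Hba-x* and *Alas2* and in 13.6% of all windows, and TATAA in *Hba-x* and the 4 definitive globins and in 14.7% of all windows. Where the letters lay differed between *Hba-x*, whose CACCC began 95 bases before the start, and *Hba-a1*, whose CACCC began 60 bases before it. The windows of *Hba-a1* and *Hba-a2* were 96.1% identical over the aligned columns, those of *Hbb-bs* and *Hbb-bt* 73.7%, and other pairs of globins 47.8% to 56.2%. These matches describe letters and were not tested for binding.

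Total counts were 1380707 to 4836550 per library, with a median of 2248854. No 2 libraries of a group were copies, since their counts differed by 1.92 to 7.69 chi-square per degree of freedom over 60 pairs. The label of somatic cells was checked against 7 markers of gonadal somatic cells, among them *Wt1*, *Nr5a1* and *Gata4*, which summed to 816 to 1797 counts per 1000000 (CPM) in the 10 groups and none was at 0 throughout a group. Germ cell markers were also present, at a sum of 7.45 to 485 CPM.

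Values below are CPM on library sizes scaled by TMM. Each is a 3′ count in which a transcript molecule counts at most 1 time in each of 2 sequencing lanes. Levels are not divided by length. Different genes can be compared per molecule only where they lie well below the ceiling given next. Log2 fold changes come from edgeR's quasi-likelihood test over all 40 libraries, with a two-sided p adjusted by Benjamini-Hochberg over 15125 genes (FDR). A gene was called at an FDR below 0.05 and a fold change of at least 1.5, and each value per group is over 4 libraries.

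The highest globin counts stood near the highest count that any gene reached. The largest count in a library was 7268 to 9811, with a median of 9041.5, and *Hbb-y* reached 82.1% to 99.1% of that in the XY 0 h libraries and 59.4% to 73.1% in the XX 0 h libraries. *Hba-a1* reached 79.0% to 100% in XY 0 h and 58.0% to 71.6% in XX 0 h. *Hba-x* and *Hba-a2* passed 50% in all 4 XY 0 h libraries and in no XX 0 h library. *Hbb-bs* passed it in 2 XY 0 h libraries, at up to 71.0%, and *Hbb-bt* in 1, at 56.2%. In XY DMSO 24 h, *Hba-a1* passed it in 2 libraries, at up to 70.7%, and *Hbb-y*, *Hbb-bs* and *Hba-a2* in 1 each. With MEKi at 24 h, *Hbb-y* and *Hba-a1* passed it in 1 each. *Hbb-bh1*, *Alas2* and *Slc4a1* never did. At 72 h, no globin was above 18.9% of the largest count.

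The ratio of near-identical paralogs moved with this. *Hba-a1* over *Hba-a2* had a median of 1.42 in the 10 libraries with at least 5000 counts of *Hba-a1* and 2.17 in the 12 libraries below 1000. The ratio of *Hbb-bs* over *Hbb-bt* was likewise 1.34 in 2 libraries and 2.26 in 19. If each transcript had drawn from 10000 tags, the corrected medians would be 1.71 and 2.21 for the alpha pair and 1.54 and 2.28 for the beta pair, so that a gap between them remained in both. The number of tags was set near the largest counts seen, and it is not the number that the UMI length in the authors' methods would allow. In that correction, 8679 counts of *Hbb-y* in XY 0 h M6 became 20242. So falls from 0 h in these genes are given here as counted and, where it matters, with the correction, which made each of them larger. The split within pairs also depends on how reads were assigned between paralogs. *Hbb-bs* and *Hbb-bt* are the adult pair named in the reference annotation. The haplotype of the *Hbb* genes in these embryos of mixed strain was not examined, so the separate values of the 2 are less certain. Of the 60-base windows in the last 300 bases, 65.6% of those of *Hba-a1* recurred in *Hba-a2*, 75.1% of those of *Hba-a2* in *Hba-a1*, and 33.2% of those of *Hbb-bs* in *Hbb-bt*, whereas no window was shared between an embryonic and a definitive globin.

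**Figure D1:**
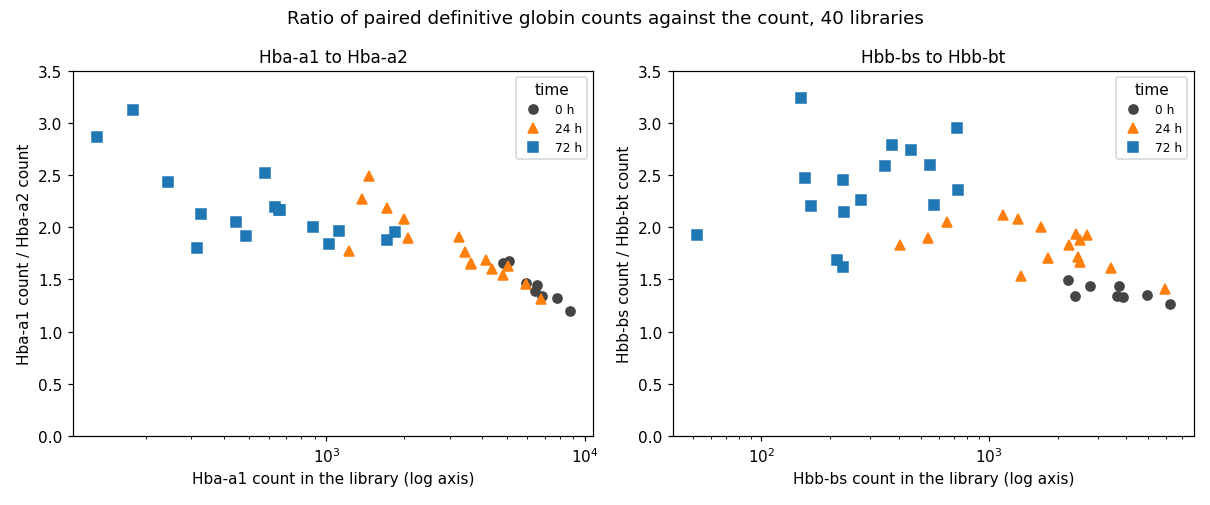
Ratio of paralog counts in each of the 40 libraries against the count of the more abundant paralog (log axis), for Hba-a1 over Hba-a2 (left) and Hbb-bs over Hbb-bt (right), with circles for 0 h, triangles for 24 h and squares for 72 h. In both panels the ratio is lower in libraries with more counts, with a median of 1.42 for the alpha pair at 5000 counts or more and 2.17 below 1000.

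The question put to the time course was how embryonic and definitive globins changed from the uncultured gonad to 24 h and 72 h of culture. All 9 genes fell in the first 24 h in both sexes, against 5.50% of all genes called lower in XY and 2.27% in XX. In XY cells the median log2 fold change was -3.28 over the 3 embryonic globins and -1.36 over the 4 definitive ones, beside 0.03 over all genes tested. In XX cells these medians were -4.89 and -2.58, also beside 0.03. The 4 libraries at 24 h lay wholly below the 4 at 0 h for all 9 genes in both sexes, against 10.6% of all genes in XY and 5.80% in XX.

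*Hbb-y* encodes the embryonic epsilon-y chain. It measured 4017, 3784, 3320.2 and 3774 CPM in the XY 0 h libraries and 1982, 475, 113 and 146 CPM in the XY DMSO 24 h libraries M2, M3, M4 and M5. The XY 0 h libraries lay close together, while at 24 h M2 stood far above the other 3 and still below every XY 0 h library. *Hbb-y* fell by 2.46 ± 0.772 (SE, edgeR FDR = 0.0152) on the log2 scale. The call was lost when M3, M4 or M5 at 24 h was left out, and without M2 the fall was 3.92. In XX cells *Hbb-y* measured 2231, 2839, 3978 and 2508 CPM at 0 h and 407, 160.2, 148 and 77.5 CPM at 24 h. No XX library at 24 h came near the XX 0 h range. There it fell by 3.86 ± 0.8295 (SE, edgeR FDR = 0.000676). With the correction for tags the falls were 2.96 in XY and 4.40 in XX.

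*Hbb-bh1* encodes the embryonic beta-H1 chain and was the least abundant of the embryonic globins. It had 477 to 672 CPM in XY 0 h and 227 to 361 CPM in XX 0 h, ranges that did not overlap. At 24 h the XY DMSO libraries measured 135, 22.6, 5.17 and 4.28 CPM and the XX DMSO libraries 13.7, 8.42, 8.22 and 1.58 CPM. M2 was again the high XY library. The gene fell by 3.86 ± 0.604 (SE, edgeR FDR = 1.96e-06) in XY and fell by 5.17 ± 0.738 (SE, edgeR FDR = 5.29e-07) in XX, on counts that lay far from the ceiling. It made up 13.3% ± 1.69 (SD, n = 4) of embryonic beta-like counts in XY 0 h against 4.54% ± 1.45 in XY DMSO 24 h. In XX the same share was 9.40% ± 0.811 at 0 h and 3.87% ± 1.53 at 24 h. These shares also depend on *Hbb-y*, which stood near the ceiling at 0 h. With the correction for tags they were 7.91% at 0 h and 3.93% at 24 h in XY, and 6.60% and 3.77% in XX.

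*Hba-x* encodes the embryonic zeta chain, the alpha-like partner. It measured 2959, 2767, 2467 and 2939 CPM in XY 0 h and 929.8, 156, 33.5 and 36.6 CPM in XY DMSO 24 h. The pattern over libraries was that of *Hbb-y*, with M2 above the other 3. The gene fell by 3.28 ± 0.782 (SE, edgeR FDR = 0.00128), and by 5.19 without M2. In XX it went from 1379 to 2263 CPM to 33.6 to 113 CPM and fell by 4.89 ± 0.871 (SE, edgeR FDR = 4.06e-05).

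**Figure D2:**
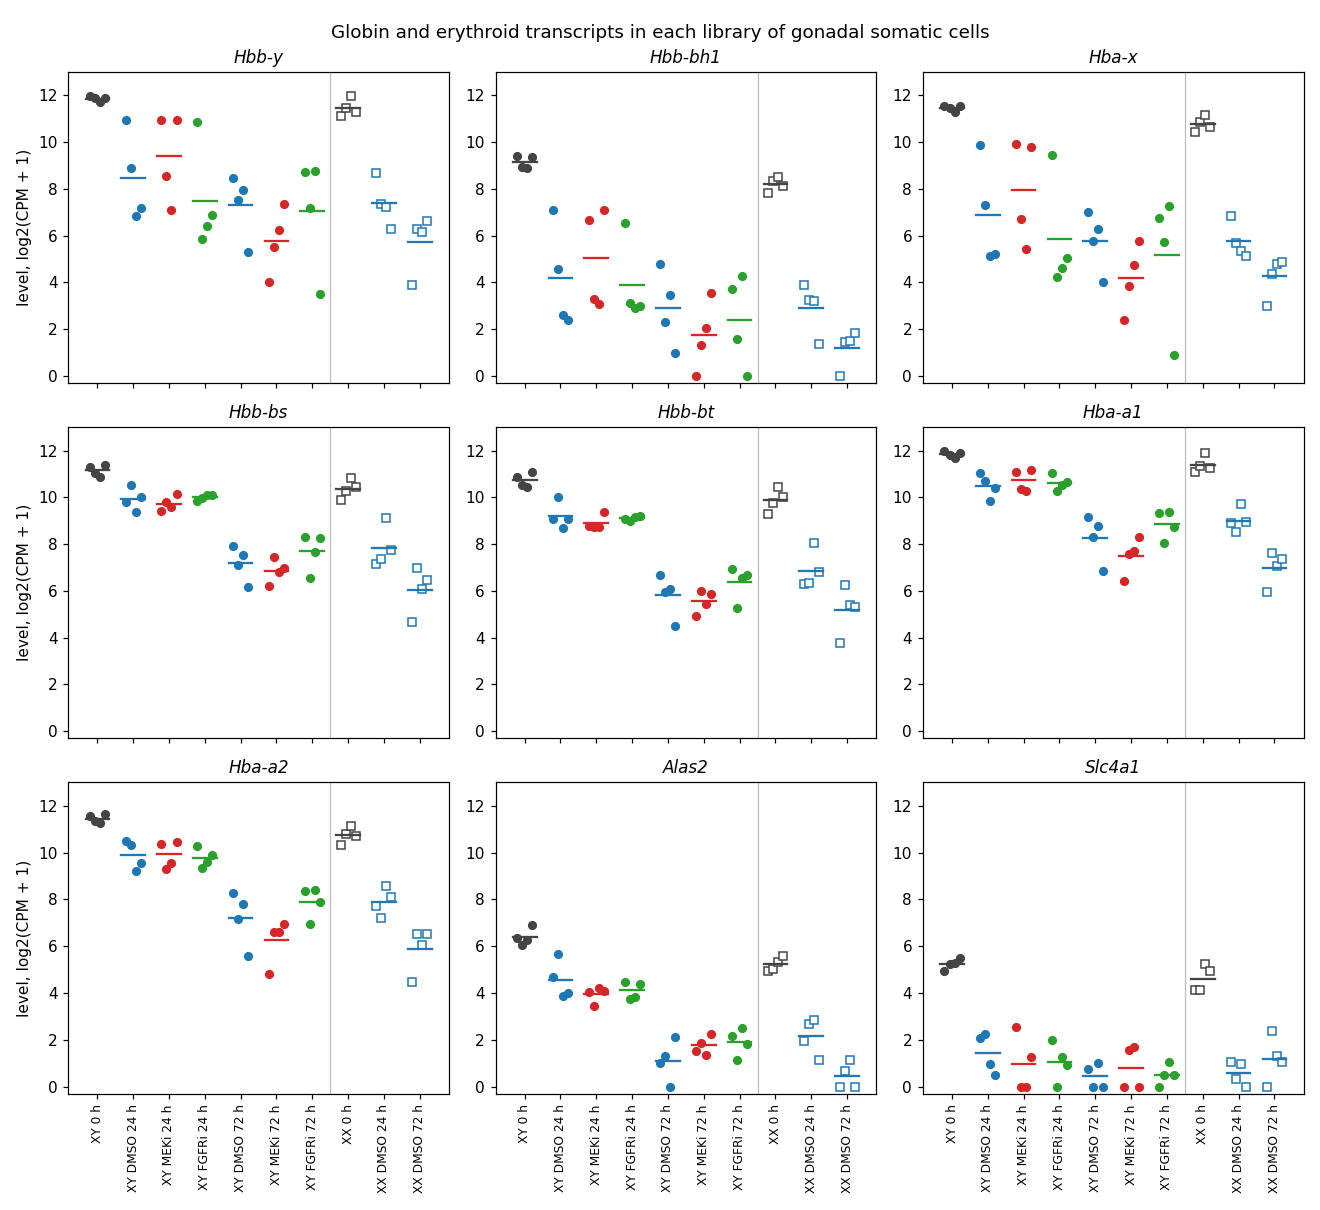
Level of each gene in each library as log2(CPM + 1), by group, with XY libraries as filled circles, XX libraries as open squares and group means as bars. Every gene is highest at 0 h, and at 24 h the XY libraries spread widely for Hbb-y, Hbb-bh1 and Hba-x but not for Hbb-bs and Hbb-bt.

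*Hbb-bs*, the adult beta globin with the higher counts as assigned, measured 2521, 2123, 1850.1 and 2704 CPM in XY 0 h and 892, 1474, 658 and 1043 CPM in XY DMSO 24 h. M2, the high library for embryonic globins, lay below M3 and M5 here. The gene fell by 1.18 ± 0.308 (SE, edgeR FDR = 0.00339). In XX it measured 946, 1226, 1837 and 1372 CPM at 0 h and 142, 162, 554 and 213 CPM at 24 h. The F6 library was the highest at 24 h, and F4, the highest for *Hbb-y*, was the lowest. In XX cells *Hbb-bs* fell by 2.34 ± 0.325 (SE, edgeR FDR = 2.79e-07). Its partner *Hbb-bt* fell by 1.44 ± 0.296 (SE, edgeR FDR = 0.000194) in XY and fell by 2.90 ± 0.322 (SE, edgeR FDR = 1.05e-09) in XX.

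*Hba-a1* and *Hba-a2* encode the adult alpha chain. *Hba-a1* measured 4003, 3643, 3258 and 3807 CPM in XY 0 h and 2123, 1682, 922 and 1336 CPM in XY DMSO 24 h. It fell by 1.28 ± 0.301 (SE, edgeR FDR = 0.00109), or by 1.67 with the correction for tags. In XX it measured 2178, 2617, 3756 and 2455 CPM and then 480.4, 362, 827 and 485 CPM. The XX libraries at 24 h all lay below the lowest XY DMSO 24 h library. In XX the gene fell by 2.36 ± 0.313 (SE, edgeR FDR = 1.03e-07). *Hba-a2* fell by 1.46 ± 0.331 (SE, edgeR FDR = 0.000711) in XY and fell by 2.81 ± 0.353 (SE, edgeR FDR = 2.47e-08) in XX.

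*Alas2* is the erythroid form of the enzyme that starts haem synthesis. It measured 80.5, 64.9, 75.1 and 120.0 CPM in XY 0 h and 24.6, 49.96, 13.8 and 15.2 CPM in XY DMSO 24 h. M3 was its high library at 24 h, as it was for *Hbb-bs* and *Hbb-bt*. *Alas2* fell by 1.71 ± 0.271 (SE, edgeR FDR = 2.49e-06) in XY. In XX it went from 29.9 to 46.7 CPM to 1.19 to 6.29 CPM and fell by 3.20 ± 0.365 (SE, edgeR FDR = 2.01e-09). *Slc4a1*, the band 3 anion exchanger of the red cell membrane, measured 29.7, 37.0, 37.8 and 44.3 CPM in XY 0 h and 3.21, 3.73, 0.958 and 0.389 CPM in XY DMSO 24 h, the last from 1 count. It had the largest log2 fall of the 9 genes in both sexes. The gene fell by 4.13 ± 0.505 (SE, edgeR FDR = 7.11e-09) in XY and fell by 5.41 ± 0.655 (SE, edgeR FDR = 9.93e-09) in XX, where only 0 to 3 counts per library were left.

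Set against the globin pool, *Alas2* and *Slc4a1* differed. *Alas2* had 4.81 ± 1.06 counts per 1000 globin counts in XY 0 h and 5.04 ± 2.22 in XY DMSO 24 h (SD, n = 4). *Slc4a1* had 2.14 ± 0.403 and 0.364 ± 0.208. In XX the values were 3.21 ± 0.792 and 2.85 ± 1.998 for *Alas2*, and 2.09 ± 0.564 and 0.355 ± 0.306 for *Slc4a1*. The means of the *Slc4a1* ratio at 0 h and 24 h lay further apart than either SD in both sexes. Those of the *Alas2* ratio lay closer together than the SD at 24 h. Several globins stood near the ceiling at 0 h and *Alas2* and *Slc4a1* did not, which would make the ratios at 0 h too high. No ratio was computed with the correction for tags, so the size of these changes is uncertain.

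The 7 globins together made up 1.66% ± 0.169 (SD, n = 4) of all counts in XY 0 h, 0.534% ± 0.238 in XY DMSO 24 h and 0.106% ± 0.0618 in XY DMSO 72 h. In XX they made up 1.14% ± 0.254, 0.146% ± 0.0513 and 0.0408% ± 0.0187 at the same times. Alpha-like chains were 52.8% ± 0.946 of globin counts in XY 0 h and 52.8% to 59.8% on average in the 10 groups.

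From 24 h to 72 h, the definitive globins fell again, and the embryonic globins gave no call. In XY DMSO, 5 of the 9 genes were called lower, against 3.03% of all genes, and these were the 4 definitive globins and *Alas2*. The same 5 were called lower in XX DMSO, against 3.17%, and with FGFRi, against 2.33%. With voom and a test against the fold, 4 of the 5 calls in XX were lost, namely *Hbb-bs* (limma FDR = 0.125), *Hbb-bt* (0.298), *Hba-a2* (0.151) and *Alas2* (0.728), and with FGFRi that of *Alas2* (0.0511). The step in DMSO goes from library set 3 to set 4, so that time and set cannot be told apart there, whereas the FGFRi groups at 24 h and 72 h both lie in set 4. The median log2 fold change over the definitive globins was -2.58 in XY DMSO, -1.87 in XX DMSO and -2.004 with FGFRi, and over the embryonic globins -1.75, -1.62 and -1.28, beside -0.01 to 0 over all genes tested.

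*Hbb-bs* measured 242, 136, 187 and 70.9 CPM in XY DMSO 72 h, all below its XY DMSO 24 h libraries, and fell by 2.67 ± 0.333 (SE, edgeR FDR = 3.54e-08). *Hbb-bt* fell by 3.30 ± 0.339 (SE, edgeR FDR = 1.75e-10). *Hba-a1* measured 572, 315, 443 and 116 CPM and fell by 2.06 ± 0.312 (SE, edgeR FDR = 2.94e-06). *Hba-a2* fell by 2.50 ± 0.353 (SE, edgeR FDR = 6.33e-07). These 4 genes, like *Alas2*, did not overlap between 24 h and 72 h in XY DMSO, against 7.06% of all genes that lay wholly lower at 72 h. In XX DMSO the 4 definitive globins and *Hba-x* lay wholly lower at 72 h, against 6.84%, and with FGFRi the 4 definitive globins and *Alas2*, against 6.16%.

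*Alas2* reached the floor of the counts at 72 h. It measured 1.00, 1.49, 0 and 3.33 CPM in XY DMSO 72 h, from 0 to 7 counts, and 0, 0.591, 1.19 and 0 CPM in XX DMSO 72 h, from 0 to 4 counts. A count of 0 in a library here allows up to 1.03 to 1.99 CPM (3 counts). *Alas2* fell by 4.14 ± 0.461 (SE, edgeR FDR = 1.91e-09) in XY and fell by 2.75 ± 0.755 (SE, edgeR FDR = 0.00938) in XX, where the call was lost without F5 at 24 h.

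*Hbb-y* measured 351, 184, 248 and 38.5 CPM in XY DMSO 72 h. This range overlapped that of XY DMSO 24 h, where M4 and M5 had lain at 112.8 and 145.8 CPM. Its log2 fold change was -1.71 ± 0.775 (SE, edgeR FDR = 0.159). The values of *Hbb-bh1*, -1.75 ± 0.784 (SE, edgeR FDR = 0.152), and *Hba-x*, -2.03 ± 0.810 (SE, edgeR FDR = 0.1), missed the threshold too. Without M2 at 24 h, *Hbb-y* had a value of -0.24, *Hba-x* one of -0.12 and *Hbb-bh1* one of 0.09. In XX DMSO, *Hbb-y* was 13.6 to 97.1 CPM at 72 h against 77.5 to 407 CPM at 24 h, with -1.62 ± 0.845 (SE, edgeR FDR = 0.231). *Slc4a1* was at 0 to 7 counts in every 72 h library and gave no call in any of the 3 steps.

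With FGFRi, the same step within a set gave the same genes. *Hbb-bs* measured 915, 1003, 1098 and 1095 CPM at 24 h, a tight range, and 316, 92.4, 204 and 302 CPM at 72 h. It fell by 2.18 ± 0.326 (SE, edgeR FDR = 2.11e-06). *Hbb-y* measured 1867, 57.2, 83.4 and 116 CPM at 24 h and 417, 143, 430.3 and 10.48 CPM at 72 h. Library M1 at 24 h lay above every 72 h library, while the other 3 at 24 h lay below 3 of the 4 at 72 h. The log2 fold change of *Hbb-y* was -1.09 ± 0.769 (SE, edgeR FDR = 0.479), and without M1 at 24 h it was 1.53.

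**Figure D3:**
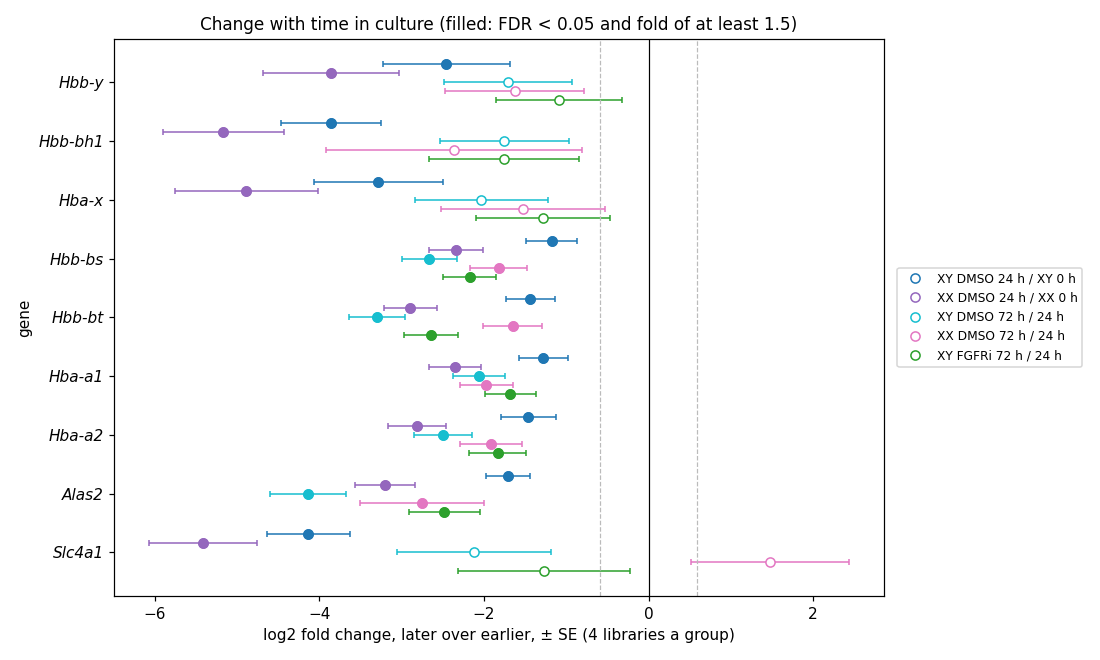
Log2 fold changes of the 9 genes over time with bars of 1 standard error (4 libraries a group, filled where called, dashed lines at a fold of 1.5), for 24 h against 0 h in XY and XX and for 72 h against 24 h in XY DMSO, XX DMSO and XY FGFRi. In the early step all 9 genes lie below 0, from -1.18 for Hbb-bs in XY to -5.41 for Slc4a1 in XX, and in the late step the definitive globins and Alas2 have the called falls.

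The embryonic share of the globin counts puts both classes on 1 scale in each library, without the scaling of library sizes. It is a description here and was not tested. On the beta side (*Hbb-y* plus *Hbb-bh1* of the 4 beta-like genes), it was 51.7, 54.3, 54.0 and 47.8% in the XY 0 h libraries and 60.9, 60.3, 57.5 and 53.7% in the XX 0 h libraries. The libraries of each 0 h group thus lay close together, at 51.9% ± 2.98 and 58.1% ± 3.27 (SD, n = 4). With the correction for tags these means were 59.5% and 63.9%. At 0 h the 95% counting interval of a library's beta share (Wilson) reached at most 0.984 percentage points to each side, at 24 h 2.43 and at 72 h 8.25, and these cover counting error only. They take each count as a separate molecule. A molecule can count in each of the 2 lanes, so the intervals may be too narrow, and they leave out the effect of the ceiling.

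At 24 h the shares parted. They were 59.7, 16.5, 9.96 and 8.65% in XY DMSO M2, M3, M4 and M5, and 65.7, 41.1, 16.1 and 19.5% in XX DMSO F4, F5, F6 and F9. They were 65.2, 22.6, 10.8 and 54.4% with MEKi in M1, M2, M4 and M6, and 57.5, 4.13, 5.12 and 6.82% with FGFRi in M1, M3, M4 and M5. Each of the 4 groups held at least 1 library above the counted 0 h range of its sex beside libraries well below it. With the correction for tags this held for DMSO and MEKi in XY, whereas the highest library was at 66.7% in XX DMSO and 60.6% with FGFRi, below the highest 0 h libraries of 67.1% in XX and 60.8% in XY. The high ones were M2 in DMSO, M1 and M6 with MEKi, M1 with FGFRi and F4 in XX, and all of these differences within a group were larger than the counting intervals.

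The alpha side, *Hba-x* of the 3 alpha-like genes, set the same libraries apart. It was 29.6, 30.6, 30.3 and 29.6% in XY 0 h and 28.4, 29.5, 27.3 and 28.1% in XX 0 h. At 24 h it was 20.6, 5.02, 2.16 and 1.72% in XY DMSO, 14.0, 9.04, 3.22 and 4.24% in XX DMSO, 21.8, 4.98, 2.07 and 18.99% with MEKi and 17.2, 0.938, 1.02 and 1.25% with FGFRi, in the same order of libraries. The high libraries on the beta side were the high ones here, and unlike on the beta side they all stayed below the 0 h range. With the correction, the 0 h means of 30.0% and 28.3% became 27.1% and 26.3%.

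At 72 h the beta share was 52.2, 49.0, 50.4 and 29.9% in XY DMSO, 26.9, 28.4, 39.8 and 44.3% in XX DMSO, 12.7, 16.3, 33.9 and 48.7% with MEKi and 49.5, 52.7, 60.3 and 2.53% with FGFRi. In XY DMSO, M2, M4 and M5 at 72 h lay within the counted XY 0 h range, and M6 lay below it. With the correction for tags, the XY 0 h range was 57.0% to 60.8% and the highest XY DMSO library at 72 h was at 52.7%, below it. FGFRi M6 had the lowest share, with 25 counts of *Hbb-y*, none of *Hbb-bh1* and 2 of *Hba-x* beside 720 of *Hbb-bs*. The alpha share at 72 h was 12.7, 10.496, 10.2 and 8.53% in XY DMSO and 9.92, 11.8, 13.3 and 0.126% with FGFRi, and M6 with FGFRi was the low one again.

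**Figure D4:**
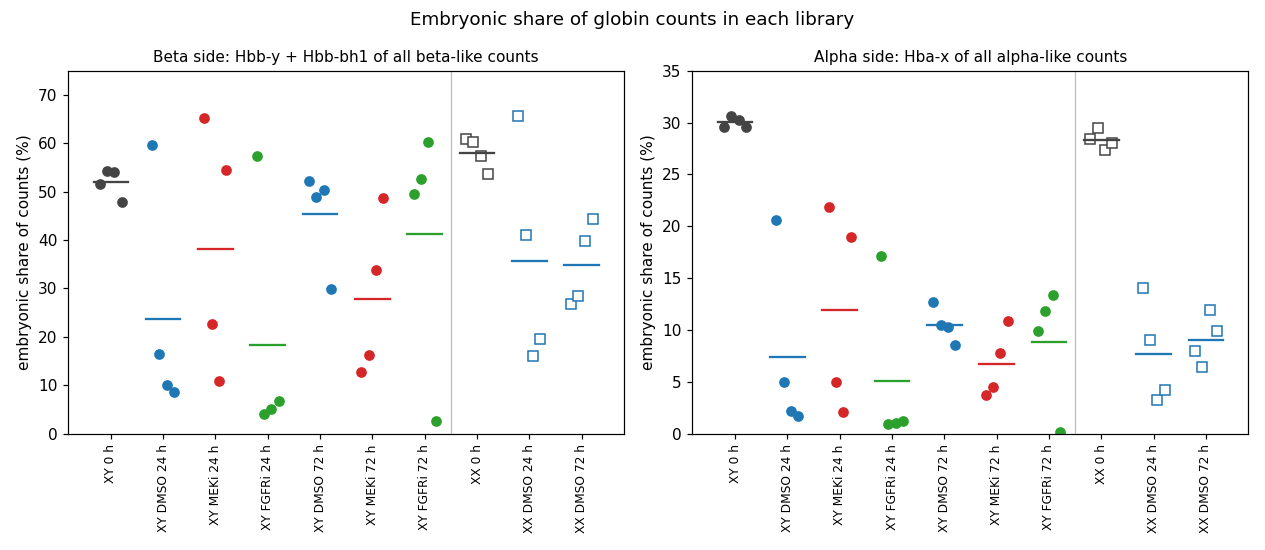
Embryonic share of beta-like (left) and alpha-like (right) globin counts in percent, for each library by group, with group means as bars. The beta share is 47.8% to 60.9% in the 0 h libraries and spreads from 4.13% to 65.7% in the 24 h libraries.

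Over the 40 libraries, which share their groups and depth, Pearson's r of log2 CPM was 0.99 between *Hbb-y* and *Hba-x* and 0.97 between *Hbb-bs* and *Hba-a1*. Between *Hbb-y* and *Hbb-bs* it was 0.73. After the mean of its group was taken from each library, r was 0.98 between *Hbb-y* and *Hba-x*, 0.95 between *Hbb-y* and *Hbb-bh1*, 0.97 between *Hbb-bs* and *Hbb-bt*, and 0.22 between *Hbb-y* and *Hbb-bs*. *Hba-a1* stood between the classes, with 0.70 to *Hbb-y* and 0.77 to *Hbb-bs*. So within groups the library that was high for an embryonic globin was high for the others of its class, more than for the adult beta globins.

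XX and XY cells were compared at each time. Before culture, *Hbb-bt* and *Alas2* were lower in XX, 2 of 9 genes against 9.32% of all genes called lower. *Alas2* had a log2 difference of -1.21 ± 0.274 (SE, edgeR FDR = 0.000486) and *Hbb-bt* one of -0.83 ± 0.293 (SE, edgeR FDR = 0.0331), which lost its call without F2, F3, F5, M2 or M6. *Hbb-bs* had -0.78 ± 0.306 (SE, edgeR FDR = 0.0599), and *Hbb-y*, near the ceiling, had -0.37 ± 0.730 (SE, edgeR FDR = 0.776). *Hbb-bh1*, *Hba-x*, *Hbb-bs*, *Hbb-bt*, *Hba-a2* and *Alas2* did not overlap between the sexes, 6 of 9 genes against 12.5% of all genes wholly lower in XX.

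At 24 h in DMSO, 7 of the 9 genes were lower in XX, against 10.3% of all genes. *Alas2* had the largest difference, -2.70 ± 0.363 (SE, edgeR FDR = 2.42e-08), with 1.19 to 6.29 CPM in XX and 13.8 to 49.96 CPM in XY. *Hbb-bt* had -2.29 ± 0.316 (SE, edgeR FDR = 4.78e-08), with 77.4 to 262 CPM in XX and 409 to 1046 CPM in XY. Neither gene overlapped between the sexes, nor did the other 3 definitive globins, whose differences were -1.50 to -2.03, 5 of 9 genes against 12.8% of all genes wholly lower in XX. *Hbb-bh1*, at -2.27 ± 0.805 (SE, edgeR FDR = 0.0289), and *Hba-x*, at -2.26 ± 0.812 (SE, edgeR FDR = 0.0321), were called over overlapping libraries and lost the call without F5, F6, F9 or M2. *Hbb-y* and *Slc4a1* missed the threshold, with FDR = 0.0866 and 0.0964 (edgeR).

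Whether the early fall differed between the sexes was tested by the interaction of sex and time. The fall was larger in XX for *Hbb-bt*, with a difference in log2 fold change (XX minus XY) of -1.46 ± 0.424 (SE, edgeR FDR = 0.0233), and for *Alas2*, with -1.49 ± 0.464 (SE, edgeR FDR = 0.0378), 2 of 9 genes against 6.20% of all genes with a called interaction. The other 7 genes had differences of -1.08 to -1.61 that were not called. Both calls were lost without F4 at 0 h, M3 or M5 at 0 h, F4 or F9 at 24 h, or M3 at 24 h. From 24 h to 72 h no gene of the 9 had a called interaction, against 2.04%, and *Hbb-bt* came nearest with 1.65 ± 0.488 (SE, edgeR FDR = 0.0604).

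At 72 h in DMSO, 3 of 9 genes were lower in XX, against 10.8% of all genes. *Hba-a1* measured 60.6, 193, 133 and 165 CPM in XX and 572, 315, 443 and 116 CPM in XY. Only M6 of the XY libraries lay within the XX range. The difference was -1.40 ± 0.322 (SE, edgeR FDR = 0.000544) for *Hba-a1*, -1.45 ± 0.378 (SE, edgeR FDR = 0.00237) for *Hba-a2* and -1.10 ± 0.351 (SE, edgeR FDR = 0.0139) for *Hbb-bs*, the last without a call when F11 or M2 was left out. None of the 9 genes was free of overlap between the sexes at 72 h, against 13.6% of all genes wholly lower in XX.

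The inhibitors were compared with DMSO within library sets. MEKi at 24 h gave no call among the 9 genes, against 3.27% of all genes in either direction, with 1 gene (*Alas2*) at an unadjusted p below 0.05. *Alas2* had a log2 fold change of -0.79 ± 0.309 (SE, edgeR FDR = 0.155) and *Hbb-y* of 0.73 ± 0.741 (SE, edgeR FDR = 0.709). *Hbb-y* measured 1990.3, 375, 137 and 1980.2 CPM with MEKi. There M1 and M6 lay close to the high DMSO library M2, and M2 and M4 within the range of the other DMSO libraries. Without the DMSO library M2, *Hbb-bh1* and *Hba-x* were called higher with MEKi, so the absence of a call rested on that library. That fit kept M1 and M6 with MEKi, which were high like it, so its calls are not support for an effect. *Hbb-bs* at 675 to 1120.5 CPM overlapped its DMSO range of 658 to 1474 CPM. Endothelial markers summed to 53.3 to 66.5 CPM with MEKi and 186 to 264 CPM in DMSO, and macrophage markers to 15.9 to 30.8 and 34.6 to 74.5 CPM, and their part in the globin values was not tested.

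MEKi at 72 h gave 1 call of 9, against 4.19% of all genes called lower. *Hba-a2* measured 27.0, 97.8, 96.1 and 123 CPM with MEKi and 304, 143, 221 and 47.6 CPM in DMSO. The DMSO library M6 lay within the MEKi range, and the other 3 lay above it. The log2 fold change was -1.07 ± 0.366 (SE, edgeR FDR = 0.0477), close to the threshold, and the call was lost in 6 of the 8 fits that left out 1 library (DMSO M2, M4 or M5, MEKi M2, M3 or M4). *Hba-a1* had -0.88 ± 0.314 (SE, edgeR FDR = 0.0571) and *Hbb-bs* -0.41 ± 0.336 (SE, edgeR FDR = 0.46). Of 8 tested macrophage markers, 6 were lower with MEKi, and their sum was 33.2 to 49.3 CPM beside 55.7 to 175 CPM in DMSO. Of 6 endothelial markers, 5 were lower, with sums of 39.9 to 63.0 and 71.4 to 126 CPM. Their part in the result was not tested. The effect of MEKi was not called as different between 24 h and 72 h for any of the 9 genes, against 1.41% of all genes.

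FGFRi at 72 h gave no call, against 1.80% of all genes in either direction, and no gene of the 9 had an unadjusted p below 0.05. The definitive globins had log2 fold changes of 0.45 to 0.51, and *Hbb-y* had 0.27 ± 0.777 (SE, edgeR FDR = 0.927). The counts of *Hba-a1* with FGFRi, at 645, 265, 663 and 429.9 CPM, overlapped those in DMSO. At 24 h, FGFRi and DMSO lie in different sets, and their values are given side by side without a test. *Hba-a1* was 1602 ± 361 CPM with FGFRi and 1516 ± 510.1 CPM in DMSO, and *Hbb-y* 531 ± 891 and 679 ± 884 CPM (SD, n = 4).

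The 2 inhibitors act on different proteins, MEK1/2 and the FGF receptors, and were compared at 500 nM and 72 h. *Hba-a1* and *Hba-a2* were lower with MEKi than with FGFRi, 2 of 9 genes against 4.69% of all genes called lower. *Hba-a1* had -1.34 ± 0.315 (SE, edgeR FDR = 0.00268) and *Hba-a2* -1.57 ± 0.364 (SE, edgeR FDR = 0.00248), and both overlapped at the lower end of FGFRi, in M4. *Hbb-bs* had -0.92 ± 0.333 (SE, edgeR FDR = 0.0709). All 5 tested granulocyte markers were also lower with MEKi, as were 3 of 6 endothelial markers. The granulocyte sums were 35.5 to 55.5 CPM beside 122 to 267 CPM with FGFRi. Macrophage marker sums went the other way, at 33.2 to 49.3 CPM with MEKi and 21.4 to 33.2 CPM with FGFRi. The part of these cells in the result was not tested. This comparison shares its FGFRi and MEKi libraries with those against DMSO, so the 3 sets of values are not independent of each other.

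**Figure D5:**
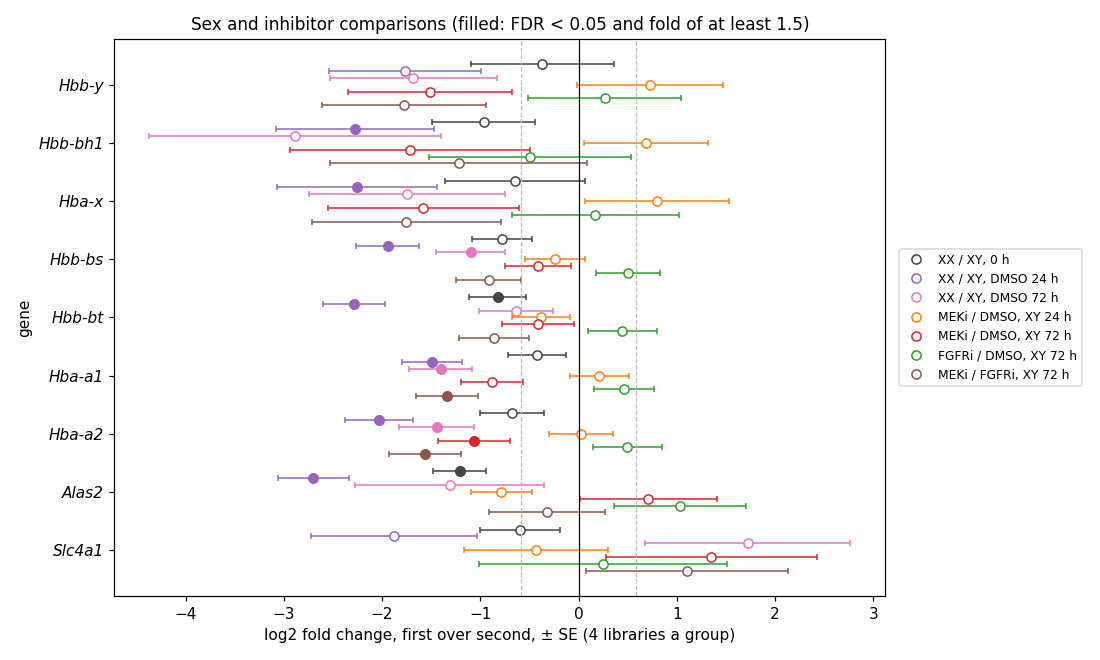
Log2 fold changes of the 9 genes with bars of 1 standard error (4 libraries a group, filled where called, dashed lines at a fold of 1.5), for XX against XY at 0 h, 24 h and 72 h and for the inhibitor comparisons. Every called point lies below 0, from -0.83 for Hbb-bt at 0 h to -2.70 for Alas2 at 24 h, both in XX against XY, and no point of MEKi at 24 h or FGFRi at 72 h is called.

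Ordered by mean level, XY 0 h came first and XX 0 h second for all 9 genes. The 2 did not differ beyond their spread for *Hbb-y*, *Hba-a1* and *Slc4a1*, whose libraries overlapped. XX 0 h was wholly above the following group for *Hbb-y*, *Hbb-bh1*, *Hba-x* and *Slc4a1*, but overlapped XY groups at 24 h for the 4 definitive globins and *Alas2*. For the 7 globins and *Alas2* the 3 XY groups at 24 h came next, and neighbours among them overlapped. For the definitive beta globins, *Hba-a1* and *Alas2*, a gap without overlap lay between the XY groups at 24 h and XX DMSO 24 h below them, and for *Hba-a2* between them and XY FGFRi 72 h. All neighbours further down overlapped. XX DMSO 72 h had the lowest mean for 8 of the genes, and *Slc4a1*, at a few counts, had no readable order after 0 h.

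Other red cell genes were counted in lists drawn up for the pathway, with named genes taken as the 3 of highest mean level unless said otherwise. In the early XY step, 8 of 12 tested late erythroid enzyme and maturation genes were called lower, against 5.50% of all genes, and none higher, with a list median of -0.74 beside 0.03 for all genes. In XX it was 5 of 12, against 2.27%, with a median of -0.29. The most abundant of this list were *Prdx2*, a peroxiredoxin, which fell by 0.70 in XY, *Mgst3*, a glutathione transferase, which fell by 1.09 in XY, and *Bnip3l*, a mitophagy receptor of maturing red cells, at -0.55 in XY and under the fold threshold. In XX, *Prdx2* had -0.31, *Bnip3l* -0.26 and *Mgst3* 0.13, and none of the 3 was called. Their means in XY DMSO were 374, 208 and 59.9 CPM at 24 h. At 72 h, when the definitive globins had fallen further, they were 356, 209 and 59.9 CPM. The levels of these 3 genes thus cannot be assigned to red cells.

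Of 14 tested red cell membrane and skeleton genes, 7 were called lower and 1 higher in the early XY step (median -0.50), and 5 lower and 1 higher in XX (median -0.56). Of all genes, 5.50% in XY and 2.27% in XX were called lower in this step, and 8.90% and 5.46% higher. *Epb41*, which encodes protein 4.1, fell by 0.62 in XY and had -0.17 in XX, and *Gypc* and *Cd47* were not called in either. Of 10 erythroid transcription factors, 3 were called lower in XY and 2 in XX, with list medians of -0.23 and -0.18. The 3 most abundant of them, *Zbtb7a*, *Ldb1* and *Sox6*, were not called in either sex. *Klf1*, the erythroid activator of adult beta globin, was chosen after its value was seen, and fell by 3.18 in XY, from 13.1 to 16.4 CPM down to 0.746 to 2.33 CPM, and by 2.42 in XX. *Gata1*, also chosen after its values were seen, did not follow *Klf1* in XX. Its mean there was 2.49 CPM at 0 h and 4.35 CPM in DMSO at 24 h. In XY the means were 0.859 and 0.709 CPM, from few counts.

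Haem synthesis apart from *Alas2* gave 2 of 10 genes lower in XY and none in XX, against 5.50% and 2.27% of all genes. The list medians were -0.19 and -0.06. *Alad* and *Tmem14c*, the most abundant of those named here, were not called in either sex. Genes of erythroid iron uptake gave 2 of 5 lower in XY, and 1 lower and 1 higher in XX. Most enzymes of this pathway are made in all cells, unlike *Alas2*. Both other globin genes that were tested, *Hbb-bh0* and *Hba-ps4*, were called lower in both sexes, by 3.57 and 1.22 in XY, and were at 1 to 3 counts per library in XX DMSO 24 h.

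In the later step these lists gave few calls. Of the 14 membrane genes, 1 was higher and none lower in XY, and 3 higher and 1 lower in XX, beside 4.24% higher and 3.03% lower of all genes in XY and 4.97% and 3.17% in XX. No late erythroid enzyme and no transcription factor was called in XY.

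Markers of other blood and vessel cells moved over the same steps. Values of all libraries of a group are given as the range of a summed level. The sum of 9 macrophage markers was 75.2 to 87.6 CPM in XY 0 h and 34.6 to 74.5 CPM in XY DMSO 24 h, and 61.2 to 85.3 and 23.7 to 34.0 CPM in XX. Of 8 tested, 2 fell in XY and 5 in XX in the early step, and 4 and 5 rose in the later one. Of all genes, 5.50% in XY and 2.27% in XX were called lower in the early step. In the later step 4.24% and 4.97% were called higher. Granulocyte markers, 6 in all, summed to 12.8 to 49.2 CPM in XY DMSO 24 h and 31.4 to 163 CPM at 72 h, and to 10.6 to 25.7 and 42.8 to 369 CPM in XX, where all 5 tested rose. Endothelial markers, 6 in all, summed to 196 to 227 CPM in XY 0 h, 186 to 264 CPM at 24 h and 71.4 to 126 CPM at 72 h. In XX they were 116 to 168, 96.2 to 133 and 66.7 to 95.1 CPM. The sums of germ cell markers were 179 to 305, 117 to 183 and 15.7 to 41.3 CPM in XY. The germ cell marker sums in XX were 63.2 to 97.8, 97.2 to 206 and 7.45 to 18.8 CPM. No macrophage, endothelial or germ cell marker was at 0 throughout any of these 6 groups, whereas 2 granulocyte markers were in XY 0 h, 1 in XX 0 h and 1 in XX DMSO 24 h. The part of these cells in the globin values was not tested.

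The genes whose pattern was most like that of the globins were ranked by Pearson's r of log2 CPM over the 40 libraries, among the genes that passed the filter. For the mean of the 3 embryonic globins they were *Hbb-bh0* (0.93), *Hsd3b6* (0.91), *Rp9* (0.83), *Nup62cl* (0.81), *Selenoh* (0.78), *Hba-ps4* (0.78), *Car2* (0.78) and *Lmnb1* (0.77). For the mean of the 4 definitive globins they were *Igf2bp1* (0.87), *Marcksl1* (0.85), *Hmga2* (0.84), *Igf2bp3* (0.83), *Hba-ps4* (0.83), *Npm1* (0.83), *Tcp1* (0.82) and *Nup62cl* (0.81). *Nup62cl* and *Hba-ps4* were in both. The values rest on groups that share time and set, and describe these libraries.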

How the data were processed

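The deposited table held UMI counts per gene for 40 libraries of sorted gonadal somatic cells from E12.5 mice. Per their methods and shared code, the authors primed libraries at the poly(A) tail with a library index and a UMI, mapped reads to GRCm39 with Rsubread, counted genes of a GENCODE annotation on the sense strand with scPipe, merged tags that differed by 1 base, and added the counts of 2 lanes. That code was shown for the germ cell libraries of the study and is taken to hold here. The counts were deposited as whole numbers, not normalised. Genes were named with GENCODE M39, which matched 40391 of 42422 IDs.

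Genes with low counts were removed by filterByExpr, library sizes were scaled by TMM, and edgeR 4.0.16 (R 4.3.3) fitted a quasi-likelihood model with 1 term per group to all 40 libraries. P-values were two-sided and adjusted by Benjamini-Hochberg over 15125 genes in each of 12 comparisons and 3 interactions. The script was tested on simulated counts with known changes. Alternatives were limma 3.58.1 (voom with a fold threshold), DESeq2 1.42.0, total-count scaling, no filter, a fit of the compared groups alone, a replicate block, a correction for 10000 tags per gene and leaving out each library. For the interactions these were chosen after seeing the data. Shares, ratios, ranges and correlations came from Python 3.11.15 with numpy 2.4.6 and pandas 2.3.3, and promoters were aligned with Biopython 1.88.

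Total counts were 1380707 to 4836550 per library. Intervals and limits of a count of 0 (3 counts) cover counting error only. The 40 libraries were separated by barcode from 2 pools, and nothing states that libraries of a group came from separate litters, so p-values measure the spread between these pools of gonads. The genes and lists were chosen with earlier results of these data known. In each comparison, the named genes of a list are the up to 3 with the highest mean CPM, and others are said to have been chosen after their values were seen. Some genes of the lists are not reported here by name. The FGFRi and DMSO groups at 24 h lay in different library sets and were not tested.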

Additional observations from a re-analysis of the deposited data

Results flagged for a closer look

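Of 110 groups of 4 values checked (9 genes and both embryonic shares in 10 groups), 10 had 1 library that stood apart by Dixon's ratio at the 95% level, which chance gives in about 1 in 20 groups. The embryonic globins and shares of a library share their counts, so the 10 are not separate events. In XY FGFRi 24 h, library M1 stood above the other 3 for *Hbb-y* (1867 CPM), *Hbb-bh1* (91.9 CPM), *Hba-x* (693 CPM), the embryonic beta share (57.5%) and the embryonic alpha share (17.2%). In XY DMSO 24 h, library M2 stood above the other 3 for *Hbb-bh1* (135 CPM), *Hba-x* (930 CPM) and the embryonic beta share (59.7%). In XY DMSO 72 h, library M6 stood below the other 3 for the embryonic beta share (29.9%). In XY MEKi 24 h, library M6 stood above the other 3 for *Hbb-bt* (653 CPM). None of these libraries was left out of the values in the report.

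The change from 0 h to 24 h differed between XX and XY cells by the test of the interaction (quasi-likelihood test of edgeR, p adjusted by Benjamini-Hochberg) for *Hbb-bt*, with a difference in log2 fold change of -1.46 (FDR = 0.0233), and for *Alas2*, with -1.49 (FDR = 0.0378). In both, the XX libraries lay wholly below the XY libraries at 24 h, but also at 0 h, so this does not bear on the change. Neither interaction was called with DESeq2 (FDR = 0.131 for *Hbb-bt* and 0.0920 for *Alas2*) or with voom and a test against the fold. Both also lost the call in several fits that left out 1 library. What lies behind either was not tested.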

How the results depend on the processing

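The falls of the 9 genes from 0 h to 24 h kept their direction in 162 of 162 values in XY and 162 of 162 in XX, over all alternatives run. Under settings other than leaving out a library, the members' values were followed over the 12 comparisons and the called interactions of *Hbb-bt* and *Alas2*. Of these values, 865 kept their direction and side of the threshold, 25 lost the call, 54 gained it and 8 turned. Values of uncalled interactions are not in these counts. The 8 that turned were uncalled: *Hba-a2* with MEKi at 24 h, at -0.12 with the correction for tags, -0.028 with total counts and -0.022 with the replicate block; *Hba-x* with MEKi at 24 h, at -0.030 with the replicate block; *Hbb-y* and *Hba-x* from 24 h to 72 h with FGFRi, at 0.63 and 0.59 with the replicate block; and *Hbb-y* and *Hba-x* with FGFRi at 72 h, at -0.79 and -1.40 with voom.

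When each library was left out in turn, uncalled values that turned ranged from -2.99 to 0.092 for *Hbb-bh1* from 24 h to 72 h in XY. In the same step with FGFRi the ranges were -1.51 to 1.53 for *Hbb-y*, -2.78 to 0.24 for *Hbb-bh1* and -1.91 to 1.66 for *Hba-x*. With MEKi at 24 h they were -0.030 to 2.53 for *Hbb-bh1*, -0.16 to 0.24 for *Hba-a2* and -2.07 to 0.10 for *Slc4a1*. With FGFRi at 72 h they were -0.15 to 0.67 for *Hbb-y*, -1.53 to 0.74 for *Hbb-bh1*, -0.46 to 0.71 for *Hba-x* and -0.46 to 0.82 for *Slc4a1*, and for MEKi against FGFRi -0.59 to 0.050 for *Alas2*. The number of members called ranged from 8 to 9 for XY at 24 h against 0 h, 4 to 5 for XX at 72 h against 24 h, 1 to 3, 5 to 8 and 2 to 3 for XX against XY at 0 h, 24 h and 72 h, 0 to 2 for MEKi at either time, and 2 to 4 for MEKi against FGFRi. For the interactions it was 0 to 5 for sex by time from 0 h to 24 h, 0 to 1 from 24 h to 72 h and 0 to 1 for MEKi by time.

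With no filter on low counts, 8 members were called in each of the 3 steps from 24 h to 72 h. For XX against XY it was 6 at 0 h and 7 at 72 h. It was 4 for 24 h of MEKi, 5 for 72 h and 7 for MEKi against FGFRi. For the interactions it was 8 and 4 for sex by time (0 h to 24 h, then 24 h to 72 h) and 5 for MEKi by time. In that fit the FDRs moved far more than the fold changes. *Hbb-y* from 24 h to 72 h in XY had -1.72 (edgeR FDR = 3.03e-57), beside -1.71 ± 0.775 (SE, edgeR FDR = 0.159) in the main fit. Such an FDR does not measure the spread between libraries, so calls without the filter are not support. Most of the gained calls counted above came from this fit. With only the compared groups in the fit, 8 were called for XX at 72 h against 24 h, 7 and 6 for XX against XY at 0 h and 72 h, and 4 each for MEKi against DMSO and against FGFRi at 72 h. With voom and a test against the fold, these were 1, 1, 0, 0 and 0, and 0 for sex by time from 0 h to 24 h. With DESeq2, 1 was called for XX against XY at 0 h, and 0 for sex by time from 0 h to 24 h and for MEKi at 72 h. The correction for tags gave 4 for XX against XY at 0 h, 1 for sex by time from 24 h to 72 h and 0 for 72 h of MEKi, and total counts gave 2 for MEKi at 72 h. The cause was not tested. The corrected embryonic shares at 0 h were 63.9% in XX and 59.5% in XY on the beta side and 26.3% and 27.1% on the alpha side, and *Hbb-y* alone gave 48.4% in XY.

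Libraries with the same replicate number did not deviate together (correlations of -0.16 to 0.12), so the numbers did not pair the samples. The fit with the replicate block gave 0 members for 72 h of MEKi and 4 for sex by time from 0 h to 24 h. No paired analysis was possible for XX against XY or for XX at 72 h against 24 h because these groups share no number or 1 number.

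*Slc4a1* from 24 h on, *Alas2* at 72 h and *Hbb-bh1* at 72 h rest on few counts, and a count of 0 allows 1.03 to 1.99 CPM. Counts near the ceiling bound the 0 h levels of *Hbb-y*, *Hba-x*, *Hba-a1* and *Hba-a2*, those of *Hbb-bs* and *Hbb-bt* in some XY libraries, and some XY levels at 24 h.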
